A study of Mus musculus with 4 samples.

Results

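The cells described here are C1q-expressing macrophages of the mouse mammary gland in which no transcript of Folr2, Mrc1, Cbr2 or Cd163 was detected. The cells were chosen by measured UMIs (unique molecular identifiers, each counting 1 captured RNA molecule). A barcode was kept with 500 or more UMIs, 300 or more detected genes and no more than 10% of its UMIs from mitochondria. Among kept cells, a gated macrophage had at least 4 UMIs summed over C1qa, C1qb and C1qc, and 0 UMIs of Folr2, Mrc1, Cbr2 and Cd163, of the T cell genes Cd3e, Cd3d and Cd3g, and of the B cell genes Cd79a and Ms4a1. This gate took 1730 of 42781 cells. Library 1, the earlier of 2, gave 1341 of its 21604 cells, and library 2 gave 389 of 21177. The same C1q, T cell and B cell limits with at least 2 UMIs of Folr2, Mrc1, Cbr2 and Cd163 defined the Folr2 class used for comparison, which held 233 and 1301 cells.

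The study profiled CD45+ cells of the gland by droplet RNA sequencing through reproductive stages. In each library the samples were pooled after labelling with hash tags, which are antibodies that carry a short DNA barcode. The tag sheet of library 1 names Nulliparous, Gestation, Lactation and Germ-free samples, and that of library 2 names Gestation, Lactation, Involution, Regression, Balb/c, GF and Germ-free samples, besides a Nulliparous tag that had 1 count in all kept cells and gave no sample. The name Germ-free belongs to tag HT2 in both sheets, but the title of library 1 has Involution in place of any germ-free sample. The title of library 2 lists a nulliparous sample beside GF. HT2 is therefore given here by its tag and kept out of statements on stage. The sources used here give no ages, no number of animals behind a tag, no strain for the other samples and no reproductive stage for the Balb/c and GF samples. No transgene, deletion or treatment is named for any group.

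C1q genes encode the recognition subunits of the classical complement pathway and are a shared mark of tissue macrophages. In the mammary gland, one macrophage population lies within the epithelium of ducts and alveoli, where it surveys and clears epithelial cells, and another, marked by Folr2, Lyve1 and the mannose receptor Mrc1, lies in the stroma. Mmp12 encodes macrophage elastase, a secreted metalloproteinase that cleaves elastin, and Apoe encodes apolipoprotein E, a lipid carrier.

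The assignment of each cell to a sample rests on the tag barcodes below, copied from the deposited tag sheets and written 5′ to 3′ in lower case. HT2, HT4, HT5 and HT6 are listed in both libraries and the other 4 only in the later one.
HT2: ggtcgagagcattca
HT4: aaagcattcttcacg
HT5: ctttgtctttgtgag
HT6: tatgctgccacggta
HT8: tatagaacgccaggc
HT9: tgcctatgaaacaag
HT10: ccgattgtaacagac
HT12: ctgcaaatataacgg
The reproductive stages are carried by HT4 (Nulliparous), HT5 (Gestation), HT6 (Lactation), HT8 (Involution) and HT9 (Regression), the strain sample by HT10 (Balb/c), and GF by HT12. The HT6 tag was weak in the later library, with 16368 counts over all kept cells against 205967 in the earlier one. HT5 was also lower there, at 83785 against 500676, whereas HT2 had 343172 against 312338.

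Single tags were called for 863 of the gated macrophages in library 1 and 208 in library 2. Several tags were called for 227 and 50, and no tag for 251 and 131. Every value below comes from single-tag cells. Their median depth was 1957 UMIs in library 1 and 4002.5 in library 2, against 2512 and 4379 in the Folr2 class. The libraries share 139 cell barcodes, and 2 gated macrophages of each library carry a barcode that is also a kept cell of the other. A single noncoding transcript, CT010467.1, took 17.5% of the gated macrophages' UMIs in library 1 and 6.02% in library 2, close to its 19.5% and 6.27% in T cells of the same libraries.

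The label genes were present to different degrees. A UMI of Apoe was detected in 97.7% of gated macrophages in library 1 and 97.1% in library 2. Mmp12 was detected in 44.5% and 52.4%. To read genes at a common depth, each cell of at least 1000 UMIs was also thinned at random to 1000 UMIs, which kept 722 and 191 gated macrophages. The gate itself was still read at full depth. At that depth Apoe was found in 96.1% (exact 95% binomial interval 94.4 to 97.4) and 92.1% (87.4 to 95.5), and Mmp12 in 30.9% (27.5 to 34.4) and 38.7% (31.8 to 46.0). T cells (at least 2 Cd3 UMIs, median depth 1553 and 3053 UMIs), which should lack both genes, gave 9.6% and 15.9% for Apoe and 0.2% and 0.4% for Mmp12. Intervals on cells cover counting error only.

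Apoe was found in most cells of both macrophage classes, and Mmp12 mainly in the gated one. At 1000 UMIs per cell, Apoe was found in 82.7% (75.4 to 88.6) of the Folr2 class in library 1 and 90.9% (88.7 to 92.8) in library 2, so the intervals of the classes were apart in library 1 and overlapped in library 2. Mmp12 was found in 4.3% and 2.2% of the Folr2 class. Mmp12 was detected in a minority of the gated macrophages at that depth. The cells are therefore called by their gate, and not by a ductal position, which these data do not measure.

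Cells close to the thresholds differed from the bulk of the class. The summed C1q count had a median of 15 UMIs in library 1 and 20 in library 2, and 47 and 15 gated cells stood exactly at 4. Those cells had 1.5 and 2.2 Mmp12 UMIs per 10000 UMIs, against 5.12 and 10.18 in the whole class, and 66.75 and 26.40 of Apoe, against 190.33 and 139.94. Just outside, 41 and 16 cells had a C1q sum of 3, with Mmp12 at 0.78 and 0.00 and Apoe at 37.68 and 9.80 per 10000. Nkg7, a cytotoxic granule gene of natural killer (NK) and T cells, went the other way, at 3.1 and 5.78 per 10000 in cells at the threshold against 0.94 and 0.93 in the class. A C1q sum above 0 was seen in 6.43% of T cells in library 1 and 23.8% in library 2.

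A further 99 cells in library 1 and 100 in library 2 missed the gate by 1 UMI of the 4 excluded genes. At 1000 UMIs per cell their values lay between the gated macrophages and the Folr2 class for the plotted genes other than Ccr2 and Apoe in library 2. Mmp12 was found in 15.4% (8.7 to 24.5) of them in library 1 and 31.2% (22.2 to 41.5) in library 2. F13a1, coagulation factor XIII subunit A and a stromal macrophage gene, was found in 2.6%, 16.5% and 52.5% of cells with 0, 1 and at least 2 such UMIs in library 1, and in 7.9%, 8.3% and 60.3% in library 2. Ccr2, the receptor for monocyte chemoattractants, reached 39.6% and 38.5% of the cells with 1 UMI, against 15.2% and 16.8% of gated macrophages and 46.0% and 30.3% of the Folr2 class.

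**Figure D1:**
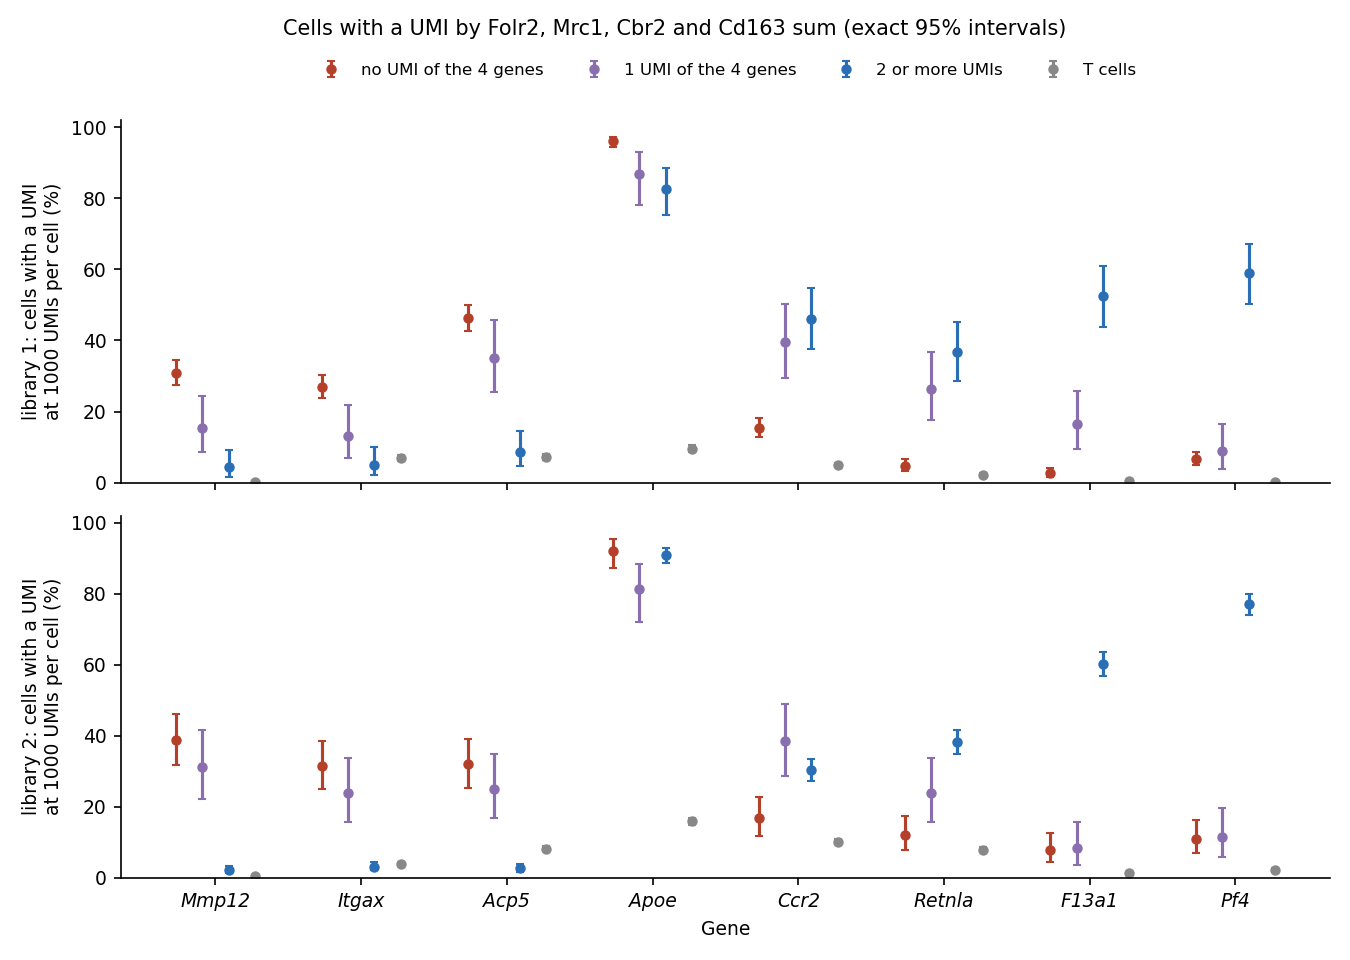
Percent of cells with at least 1 UMI of 8 genes (x axis) after thinning each cell to 1000 UMIs, in macrophages with 0, 1 or at least 2 UMIs of Folr2, Mrc1, Cbr2 and Cd163 and in T cells, with exact 95% binomial intervals; library 1 above, library 2 below. Mmp12, Itgax and Acp5 are highest in cells with 0 such UMIs, Pf4 and F13a1 in cells with at least 2, and Apoe is above 80% in all 3 macrophage groups.

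The share of cells that met the gate differed widely between samples and between libraries. In library 1 the gated macrophages made up 9.22% of single-tag cells in Gestation (426 of 4618 cells, exact interval 8.41 to 10.1), 6.95% in Lactation (177 of 2548, 5.99 to 8.0), 3.47% in Nulliparous (204 of 5887, 3.01 to 3.96) and 1.91% in HT2 (56 of 2930, 1.45 to 2.47). In library 2 the highest share was 2.93% in Balb/c (59 of 2016, 2.24 to 3.76). GF followed with 1.88% (41 of 2177, 1.35 to 2.55), Lactation with 1.76% (14 of 795, 0.966 to 2.94) and Involution with 1.46% (33 of 2260, 1.01 to 2.04). These 3 intervals overlap, and that of Balb/c overlaps those of GF and Lactation. HT2 with 0.983% (18 of 1832), Gestation with 0.936% (32 of 3420) and Regression with 0.443% (11 of 2481, 0.222 to 0.792) were lowest.

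Gestation therefore ranked first in library 1 and near the bottom in library 2. The Lactation share was 0.753 times the Gestation share in library 1 (conditional 95% interval 0.628 to 0.899) and 1.88 times in library 2 (0.928 to 3.63), opposite directions of which only the library 1 interval leaves out 1. With 1 sample of each stage in each library, an exact permutation test of the share within libraries cannot go below 0.5, and none was run. When the gate was applied after thinning to 1000 UMIs, the share in Gestation was 10.4% in library 1 and 1.45% in library 2, with total UMIs per cell matched. The library 2 shares were then 2.85% in Balb/c, 2.72% in Involution, 2.30% in GF, 2.30% in Lactation, 2.22% in HT2 and 1.00% in Regression. Involution thus moved next to Balb/c, and HT2 close to GF and Lactation. Thinning also removes UMIs of the 4 excluded genes, so cells of the Folr2 class can enter the gate. Gated cells rose from 33 to 60 in Involution, 18 to 39 in HT2 and 11 to 24 in Regression. The Folr2 class fell from 212 to 173, 274 to 210 and 173 to 135. In Balb/c the gated cells went from 59 to 55 and the Folr2 class from 24 to 23. The part of such cells in the shares was not tested. Cells under 1000 UMIs, which thinning leaves out, were 16.3% of gated macrophages in library 1 and 8.17% in library 2, and the UMIs matched include CT010467.1. Calling tags by a simple ratio in place of the clustering method moved the library 1 ratio to 0.918 (0.788 to 1.07).

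Within the C1q macrophages the balance of both classes also moved. The gated macrophages were 97.3% of both classes in library 1 Gestation (426 against 12 cells of the Folr2 class), 83.3% in Nulliparous, 76.3% in Lactation and 57.1% in HT2. In library 2 they were 71.1% in Balb/c (59 against 24 cells), 37.2% in Gestation, 33.9% in GF, 31.8% in Lactation, 13.5% in Involution, 6.16% in HT2 and 5.98% in Regression (11 against 173 cells). Each of the 4 samples of library 1 was above each sample of library 2 other than Balb/c. On this denominator Lactation was below Gestation in both libraries, and in library 2 the ratio was 0.855 (0.422 to 1.65).

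**Figure D2:**
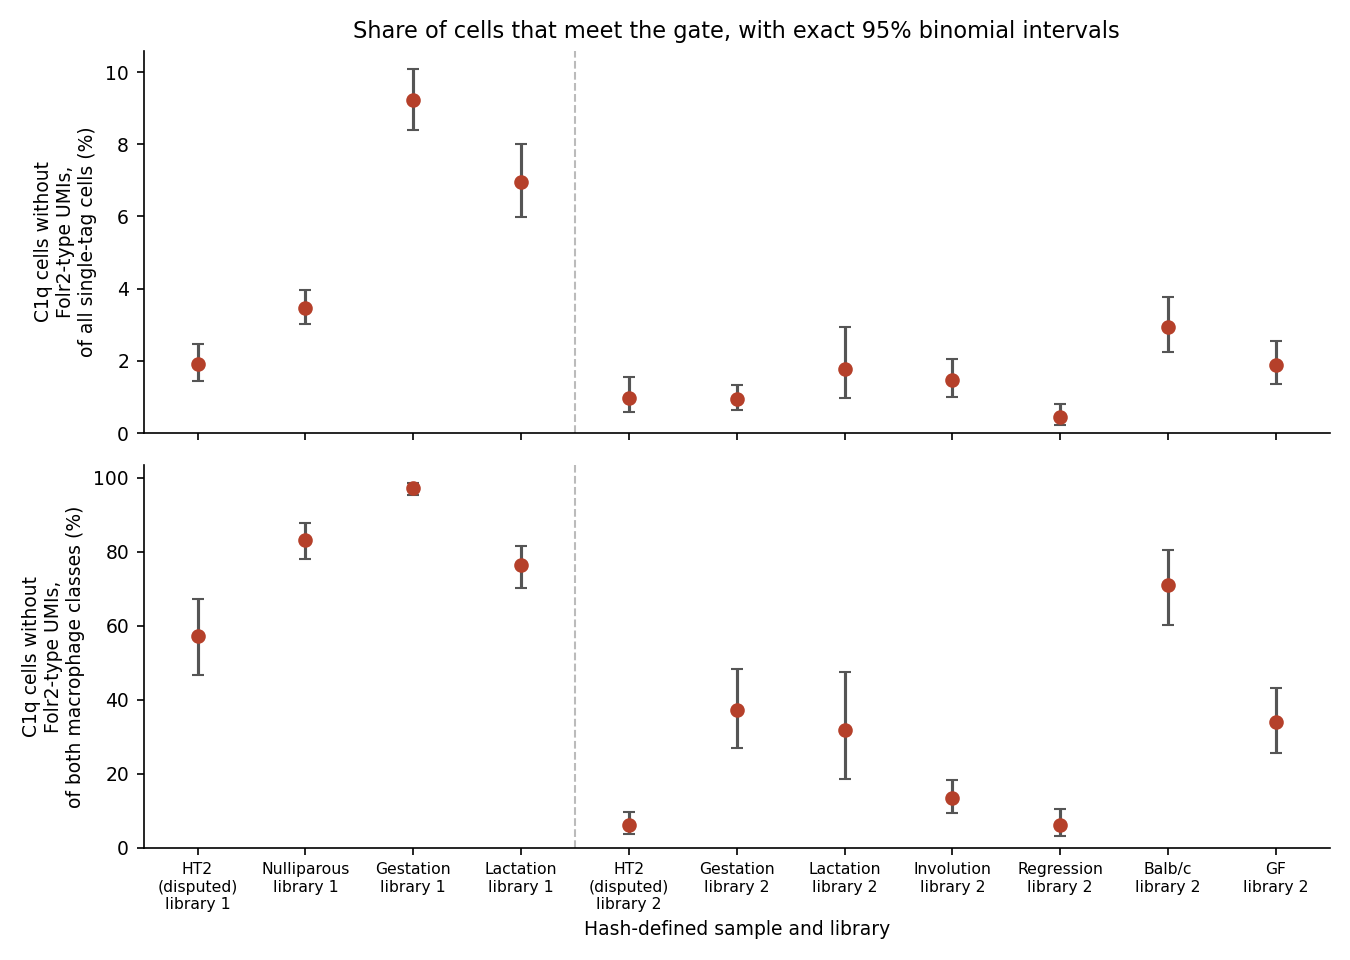
Share of single-tag cells (upper panel, %) and of both C1q macrophage classes (lower panel, %) that met the gate, by hash-defined sample, with exact 95% binomial intervals; the dashed line separates the libraries. The library 1 Gestation sample is highest in both panels, and Balb/c is highest in library 2.

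To ask which other genes distinguish the gated macrophages, raw UMIs were summed per sample and class and both classes were compared within each of the 11 hash-defined samples. The sheets name 1 tag per sample and nothing says that samples hold separate animals in known numbers, so p-values measure the spread between these samples. The 12 genes read by the gate were left out, and the remaining genes come from the same cells but were not used to choose them; the 4 excluded genes and those that accompany them are not separate evidence. Of 5350 genes tested, 751 (14.0%) were higher in the gated macrophages and 697 (13%) were lower (edgeR quasi-likelihood test, adjusted p under 0.05), and the median log2 fold change over all of them was 0.02. The count was 407 in library 1 alone, where 3147 genes were tested, and stood at 1195 in library 2 alone, where 5123 were tested. Of 3100 genes tested in both libraries, 355 were called in both, which is 88.3% of the 402 called in library 1 and 41.0% of the 866 called in library 2, and 354 of the 355 had the same direction.

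Levels below are UMIs per 10000 UMIs of the class in a sample, and differences are log2 fold changes with their standard errors over the 11 samples. Mmp12 ranged from 1.14 to 18.4 in the gated macrophages (median 5.86) and from 0.0857 to 1.22 in the Folr2 class (median 0.451). It was higher in all 11 samples, although the lowest gated sample, HT2 of library 2, lay just under the highest Folr2 sample, Gestation of library 1. Its log2 difference was 3.77 ± 0.32, given as a description since the label names the gene. Apoe ranged from 42.4 to 274 (median 162) and from 73.8 to 159 (median 123) in the Folr2 class, was higher in 8 of 11 samples, and did not pass the test (0.33 ± 0.13, adjusted p = 0.061). In library 1 alone the Apoe difference was 0.68 (adjusted p = 0.0020) and in library 2 alone 0.10 (adjusted p = 0.72).

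Counts in this and the later gene lists are to be read against all genes tested, of which 14.0% were higher and 13% lower. Of 11 genes reported for macrophages along mammary ducts, 8 were higher and 3 lower, with a median log2 difference of 2.06. The list was drawn up with Mmp12 in it and with earlier results of these data known. Itgax, the integrin alpha X chain (CD11c), ranged from 2.39 to 5.62 against 0.273 to 1.42, and the classes did not overlap (2.88 ± 0.18, adjusted p = 4.3e-12). Cx3cr1, the fractalkine receptor, ranged from 3.97 to 6.55 against 0.553 to 4.41 (1.57 ± 0.18, higher in all 11 samples). Olfml3, a secreted olfactomedin-domain protein also known from microglia, was higher by 2.85 ± 0.29, the collagenase Mmp13 by 3.25 ± 0.32, the membrane metalloproteinase Mmp14 by 2.88 ± 0.30, and the invariant chain Cd74 by 0.66 ± 0.07. The other 3 genes were lower: Fcrls, an Fc receptor-like gene, by −3.1 ± 0.31, the purine receptor P2ry12 by −0.94 ± 0.30, and Csf1r, the receptor for macrophage colony-stimulating factor, by −0.42 ± 0.13.

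**Figure D3:**
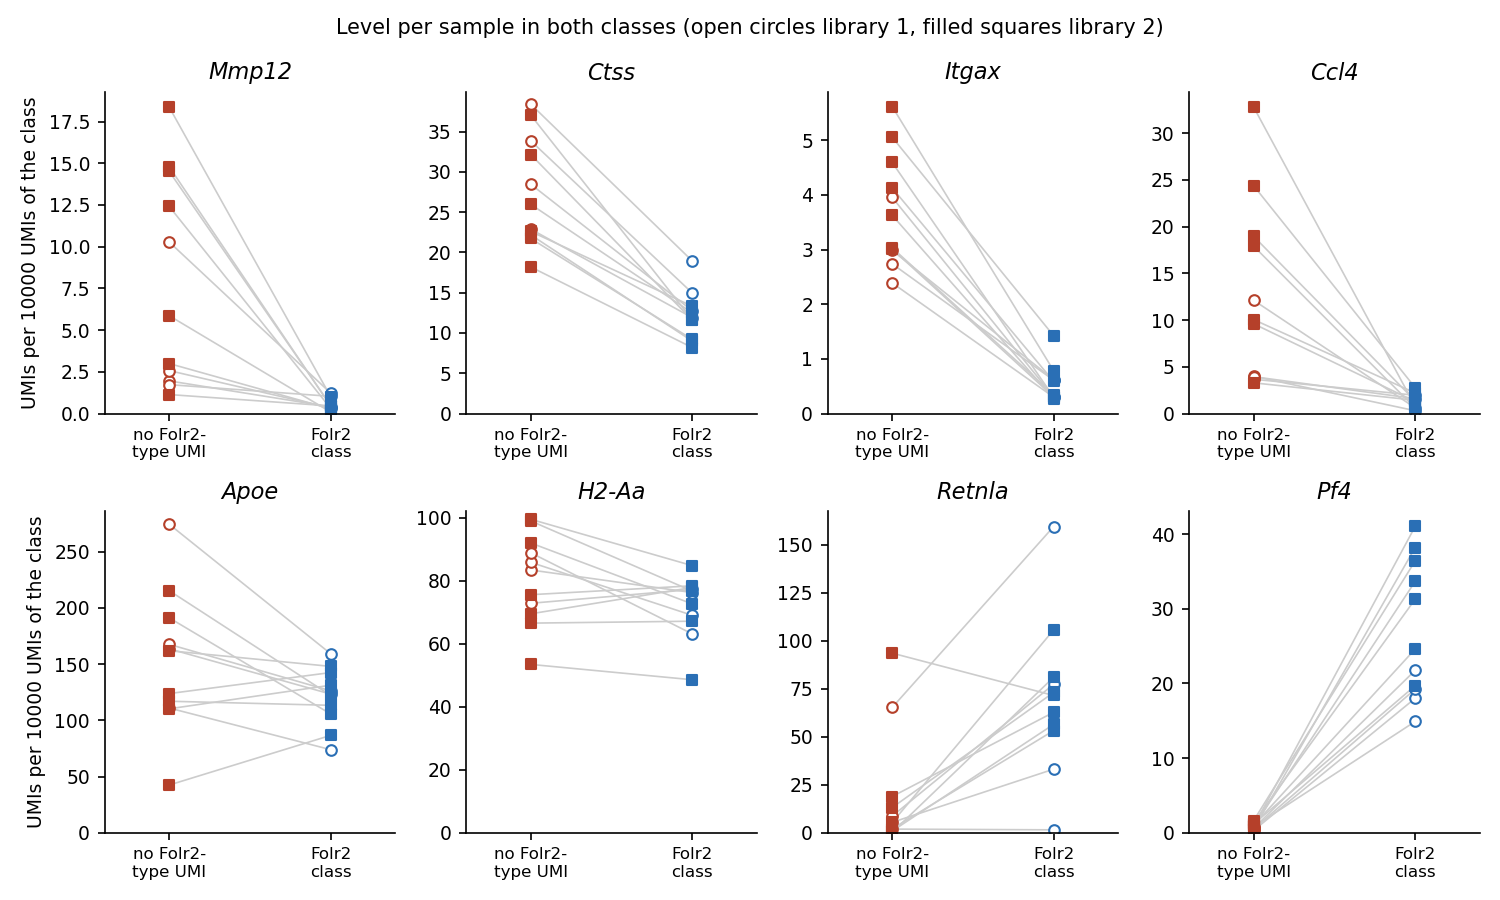
UMIs per 10000 UMIs of the class (y axes, each from 0) for 8 genes in gated macrophages (red) and the Folr2 class (blue); each point is a hash-defined sample, open circles library 1 and filled squares library 2, and grey lines join both classes of a sample. Mmp12, Ctss, Itgax and Ccl4 are higher in the gated macrophages in all 11 samples, Pf4 is lower in all 11, and Apoe and H2-Aa overlap broadly.

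The largest differences outside the gate, taken by a fixed rule on size, test, level and spread over cells, led with Mmp12. After it came Prf1 (3.62 ± 0.52), the pore-forming protein of cytotoxic lymphocytes, which no longer passed the filter once cells with UMIs of other lineages were left out. The others were Adamdec1 (3.42 ± 0.35), a macrophage ADAM-like protease, the adhesion receptor Adgrl3 (3.35 ± 0.39), Mmp13, Gpr31c (3.17 ± 0.37), Fam189a2 (3.1 ± 0.33), Zmynd15 (3.07 ± 0.24), Fam234b (3.05 ± 0.35), Lhfpl2 (3.05 ± 0.33), Acp5 (3.04 ± 0.22) and Spint1 (3.02 ± 0.34). Acp5, tartrate-resistant acid phosphatase, was abundant enough to be read in each sample, from 1.52 to 10.2 against 0.101 to 1.92. Spint1 encodes an inhibitor of serine proteases such as hepatocyte growth factor activator. The median sample level of Prf1 was 0.312 and its highest value 2.27, in HT2 of library 2.

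Proteases and matrix genes split by member. Of 14 tested, 7 were higher (Mmp2, Mmp12, Mmp13, Mmp14, Plau, Plaur and Tgfbi) and 4 lower (Mmp9, Timp2, Fn1 and Serpinb6a), with a median of 0.54. Plau, the urokinase plasminogen activator, was higher by 1.88 ± 0.26 and its receptor Plaur by 1.70 ± 0.32. Mmp9, a gelatinase, ranged from 0 to 0.784 in the gated macrophages and from 0.600 to 5.01 in the Folr2 class (−4.31 ± 0.44). Timp2, an inhibitor of metalloproteinases, was lower in all 11 samples without overlap, at 0.914 to 3.01 against 3.05 to 7.02 (−1.42 ± 0.15).

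Antigen presentation genes were modestly higher. Of 11 genes of the MHC class II pathway tested, 8 were higher and 0 lower, with a median of 0.49, and 7 of 11 were higher when cells with UMIs of other lineages were left out. Ctss, cathepsin S, which trims the invariant chain, ranged from 18.2 to 38.4 against 8.19 to 18.9 (1.27 ± 0.09, higher in all 11 samples). H2-Ab1 was higher by 0.49 ± 0.08 in all 11 samples. H2-Aa was higher by 0.25 ± 0.08 but in only 7 of 11 samples, and H2-DMa did not pass (0.15 ± 0.11, adjusted p = 0.35).

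Receptors and bridging proteins for the uptake of dying cells also split. Of 14 tested, 4 were higher (Axl, Itgav, Itgb5 and Havcr2) and 7 lower (Mertk, Gas6, Pros1, Timd4, Stab1, C3ar1 and Fcgr3), with a median of −0.64. Gas6, Timd4 and Stab1 are also on the stromal macrophage list below, so their direction is not separate evidence from the gate. Havcr2 (TIM-3), a phosphatidylserine receptor, ranged from 0.632 to 2.13 against 0 to 0.443 (2.92 ± 0.26). Itgav and Itgb5, which pair as an integrin that binds vitronectin and bridged apoptotic cells, were higher by 1.87 ± 0.21 and 1.63 ± 0.16. Axl was higher by 0.96 ± 0.18 in 10 of 11 samples, whereas its relative Mertk was lower by −1.27 ± 0.27. Gas6, the ligand that bridges both receptors to phosphatidylserine, was close to absent: it ranged from 0 to 0.333 in the gated macrophages and from 1.2 to 6.12 in the Folr2 class (−5.57 ± 0.34).

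Genes of lipid handling and the phagolysosome showed no common direction. Of 24 tested, 7 were higher (Tyrobp, Cd9, Cd63, Lgals3, Abcg1, Ctsz and Psap), 7 lower (Lgals1, Abca1, Cd36, Ctsb, Ctsl, Lamp1 and Grn) and 10 not called, with a median of 0.09. In library 1 alone Lgals3 (−0.043) and Ctsl (0.024) had the opposite sign. The tetraspanin Cd9 was higher by 1.84 ± 0.30 in 10 of 11 samples, and Ctsz, cathepsin Z, by 1.08 ± 0.11 without overlap. The cholesterol exporters Abcg1 (1.00 ± 0.20) and Abca1 (−1.52 ± 0.17) went in opposite directions. Progranulin, Grn, was lower without overlap, at 2.57 to 7.33 against 7.72 to 21.6 (−1.56 ± 0.12). Trem2, the receptor that marks lipid-associated macrophages, was not called (−0.48 ± 0.29, adjusted p = 0.23), with 101 UMIs in all gated macrophages, and Gpnmb, with 26, was not tested.

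Chemokines went in both directions. Of 16 tested, 7 were higher (Ccl3, Ccl4, Ccl5, Cxcl2, Cxcl10, Cxcl14 and Cxcl16) and 7 lower (Ccl2, Ccl6, Ccl7, Ccl8, Ccl9, Ccl12 and Ccl24). Ccl7 and Ccl8 are also on the stromal macrophage list below and are not separate evidence from the gate. Ccl4, an attractant of T cells and monocytes, ranged from 3.29 to 32.8 against 0.300 to 2.77 without overlap (3.0 ± 0.30), and its neighbour Ccl3 was higher by 2.12 ± 0.27. Cxcl16, a transmembrane chemokine, ranged from 2.27 to 7.84 against 0.785 to 2.40 (1.83 ± 0.15). Ccl8 ranged from 0 to 0.548 in the gated macrophages and from 0 to 18.7 in the Folr2 class (−6.50 ± 0.31, lower in 10 of 11 samples). Ccl24, an eosinophil attractant, was lower by −3.56 ± 0.38.

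Of 12 inflammatory and immediate early genes tested, 5 were higher (Il1b, Il1a, Tnf, Fos and Atf3) and 1 lower (Ier3). Il1b, interleukin-1 beta, ranged from 3.84 to 16.6 against 0.386 to 2.93, with no overlap (2.64 ± 0.29). Il1a, at a far lower count of 131 UMIs, was higher by 3.68 ± 0.49, Tnf by 1.01 ± 0.24 and the stress-induced factor Atf3 by 1.39 ± 0.20. Glands were dissociated with collagenase, per the labels' protocols.

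Transcription factors gave a further division. Of 14 tested, 5 were higher (Irf8, Nr1h3, Runx3, Bhlhe40 and Id2) and 4 lower (Irf4, Maf, Mef2c and Zeb2). Maf is also on the stromal macrophage list below and is not separate evidence from the gate. Runx3, a runt-domain factor also active in lymphocytes, ranged from 0.548 to 4.41 against 0.0682 to 0.513 without overlap (2.98 ± 0.19, adjusted p = 8.6e-12), and its difference was 3.11 without cells that held UMIs of other lineages. Irf8 was higher by 0.96 ± 0.15 and Bhlhe40 by 2.33 ± 0.29. Maf was lower without overlap, at 0.381 to 1.77 against 6.52 to 15.9 (−3.70 ± 0.18). Spi1, which encodes PU.1, was not called (0.32 ± 0.12, adjusted p = 0.055). Sall1, a microglial factor, had 0 UMIs in both classes.

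All 19 genes of a stromal macrophage list were lower, with a median of −4.02, against 13% of all genes tested. These genes are known companions of the 4 genes on which the gate excluded cells, so the direction of the list is not separate evidence. The lowest by the naming rule were Lyve1, Cd209g (−7.31 ± 0.35), Fcna (−7.16 ± 0.39), Ednrb (−7.10 ± 0.43), Cd209f (−6.57 ± 0.29), Chp2 (−6.53 ± 0.42), Ccl8, Gas6, Tslp (−5.54 ± 0.52), Cd209d (−5.31 ± 0.40), Gm4951 (−5.01 ± 0.51) and Pf4. Lyve1, a hyaluronan receptor, had 0 UMIs in all gated macrophages against 1237 in the Folr2 class, at least 266-fold lower when 3 UMIs over the class are taken as the floor. Pf4, platelet factor 4, ranged from 0.318 to 1.64 against 14.9 to 41.0 (−5.00 ± 0.16), and F13a1 from 0 to 3.41 against 5.19 to 17.8 (−4.09 ± 0.30). The general macrophage gene Adgre1 (F4/80) was also lower without overlap, at 1.18 to 2.46 against 2.99 to 5.27 (−1.25 ± 0.14).

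Most of the complement and iron genes tested were lower. Of 6 other complement genes tested, 5 were lower, among them C4b (−4.87 ± 0.37) and properdin, Cfp (−1.81 ± 0.19). Of 10 genes of iron handling, 7 were lower, with transferrin, Trf, at −1.72 ± 0.15 and the haem oxygenase Hmox1 at −1.23 ± 0.20, and 1 was higher, the ferritin heavy chain Fth1 (0.68 ± 0.12). Among 5 growth factor genes tested, the platelet-derived factors Pdgfa (2.14 ± 0.41) and Pdgfb (1.21 ± 0.20) were higher and Igf1, insulin-like growth factor 1, was lower without overlap, at 0 to 0.758 against 0.916 to 4.28 (−4.45 ± 0.32). Of 14 interferon response genes tested, 4 were lower, 0 higher and 10 not called, against 13% lower and 14.0% higher among all genes tested.

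Retnla, a secreted resistin-like protein of alternatively activated macrophages, was looked at after its values were seen. It ranged from 0.217 to 93.6 (median 5.43) in the gated macrophages and from 1.53 to 160 (median 71.5) in the Folr2 class, and was lower in 9 of 11 samples (−2.83 ± 0.50). The highest gated values were in HT2 of library 2 (93.6) and HT2 of library 1 (65.3), both on the tag whose name is in dispute, and the lowest in library 2 Gestation (0.217). At 1000 UMIs per cell, Retnla was found in 4.7% of gated macrophages in library 1 and 12% in library 2, against 2.1% and 7.9% of T cells, and in 36.7% and 38.2% of the Folr2 class. Ccr2 was lower by −1.01 ± 0.25, and in the gated macrophages was highest in Regression (9.03) and HT2 (8.97) of library 2.

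Some transcripts of other lineages also differed between the classes. Of 14 lymphocyte genes, 7 were tested and 4 were higher (Trbc2, Nkg7, Ncr1 and Klrb1c); their summed level ranged from 2.45 to 79.4 in the gated macrophages and from 4.10 to 96.5 in the Folr2 class, and the gate itself set Cd3e, Cd3d, Cd3g, Cd79a and Ms4a1 to 0. The NK receptor gene Ncr1 was higher by 3.17 ± 0.56. All 4 haemoglobin genes were higher (Hba-a2 had the opposite sign with DESeq2, −0.16), from a sum that ranged from 0 to 280.7 and lay mainly in library 2 Lactation, and their part in the results was not tested. Of 5 neutrophil genes tested S100a8 was higher (1.76 ± 0.55) and Mmp9 lower, with Ngp and Camp at 0. Of 12 monocyte genes tested, 4 were higher, among them Ly6c2, Plac8 and Nr4a1, and 3 lower, namely Ccr2, Fn1 and Ear2, and of 4 dendritic cell genes tested 0 were higher and Cd209a and Batf3 lower. At least 1 UMI of a set of other-lineage markers, among them Ncr1, Klrb1c, Nkg7, S100a8, Epcam and Cpa3, was held by 187 of 863 gated macrophages in library 1 (21.7%) and 70 of 208 in library 2 (33.7%), against 10.7% and 16.4% of the Folr2 class.

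When all cells with such a UMI were left out, an alternative added after the data were seen, 562 genes were higher and 508 lower of 4096 tested in 9 samples. In that fit Itgax differed by 2.82, Mmp12 by 3.39, Ccl4 by 3.14 and Il1b by 2.80. Ccl5, a chemokine that T and NK cells also make, differed by 0.91, against 1.83 with all cells, and Prf1, Klrd1, Gm4951, P2ry12, Irf4, Nr1h3 and Cxcl14 no longer passed the filter. Of the monocyte genes 9 were tested there, with 0 higher and 4 lower, so none of the 4 higher calls remained. Of the lymphocyte genes 3 were tested, with 0 higher, and of the haemoglobin genes 0. H2-Aa (adjusted p = 0.070) and Ctsl (adjusted p = 0.060) were not called there. The transcription factor Id2 was not called there (0.19, adjusted p = 0.66, against 0.94 ± 0.21 with all cells). Milk transcripts were also found in T cells. At 1000 UMIs per cell Csn2, beta-casein, was found in 30.6% of gated macrophages in library 1 and 38.7% in library 2, and in 26.7% and 39.1% of T cells. Summed milk transcripts stood at 16.9 per 10000 UMIs in gated macrophages against 10.8 in T cells in library 1, and at 13.8 against 29.2 in library 2, so the classes were in opposite order in the libraries.

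Cell cycle genes were in part higher. Of 11 tested, Top2a, Hmgb2, Birc5 and Pclaf were higher and 0 lower, with a median of 0.68. With DESeq2 size factors 3 of 11 were higher, and without cells that held other-lineage UMIs 6 of 9 tested were. Top2a (0.72 ± 0.27, adjusted p = 0.049) had the opposite sign in library 1 alone (−0.29). At 1000 UMIs per cell, a UMI of Mki67, Top2a, Birc5 or Pclaf was found in 8.0% (6.2 to 10.3) of gated macrophages in library 1 and 24.6% (18.7 to 31.3) in library 2. The Folr2 class gave 8.6% and 6.2%, and the intervals of the classes overlap in library 1 and not in library 2. In library 1 the share was 12.3% in Nulliparous, 8.0% in Gestation and 3.0% in Lactation. In library 2 it ran from 12.5% in HT2 to 35.7% in Lactation (5 of 14 cells), with 30.2% in Balb/c, and the intervals of the 7 samples overlap.

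Among the gated macrophages themselves, Mmp12 varied widely by sample. At 1000 UMIs per cell, 51.4% of the library 1 Gestation cells held a Mmp12 UMI (167 of 325, 45.8 to 56.9), against 16.7% in Lactation (11.4 to 23.2), 12.8% in Nulliparous (8.3 to 18.7) and 10.0% in HT2 (3.3 to 21.8). Gestation thus stood clear of the other 3 samples of that library, whose intervals overlap. In library 2 the highest shares were 64.2% in Balb/c (34 of 53, 49.8 to 76.9) and 46.2% in GF (30.1 to 62.8), followed by Regression with 37.5% (3 of 8 cells), Lactation with 28.6% (4 of 14), Gestation with 25.0% (8 of 32, 11.5 to 43.4), Involution with 17.2% (5.8 to 35.8) and HT2 with 12.5% (2 of 16). The Gestation interval of library 2 lies below that of library 1. In the Folr2 class the share did not exceed 11.1% in any sample, which was 1 of 9 cells of library 1 Gestation.

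**Figure D4:**
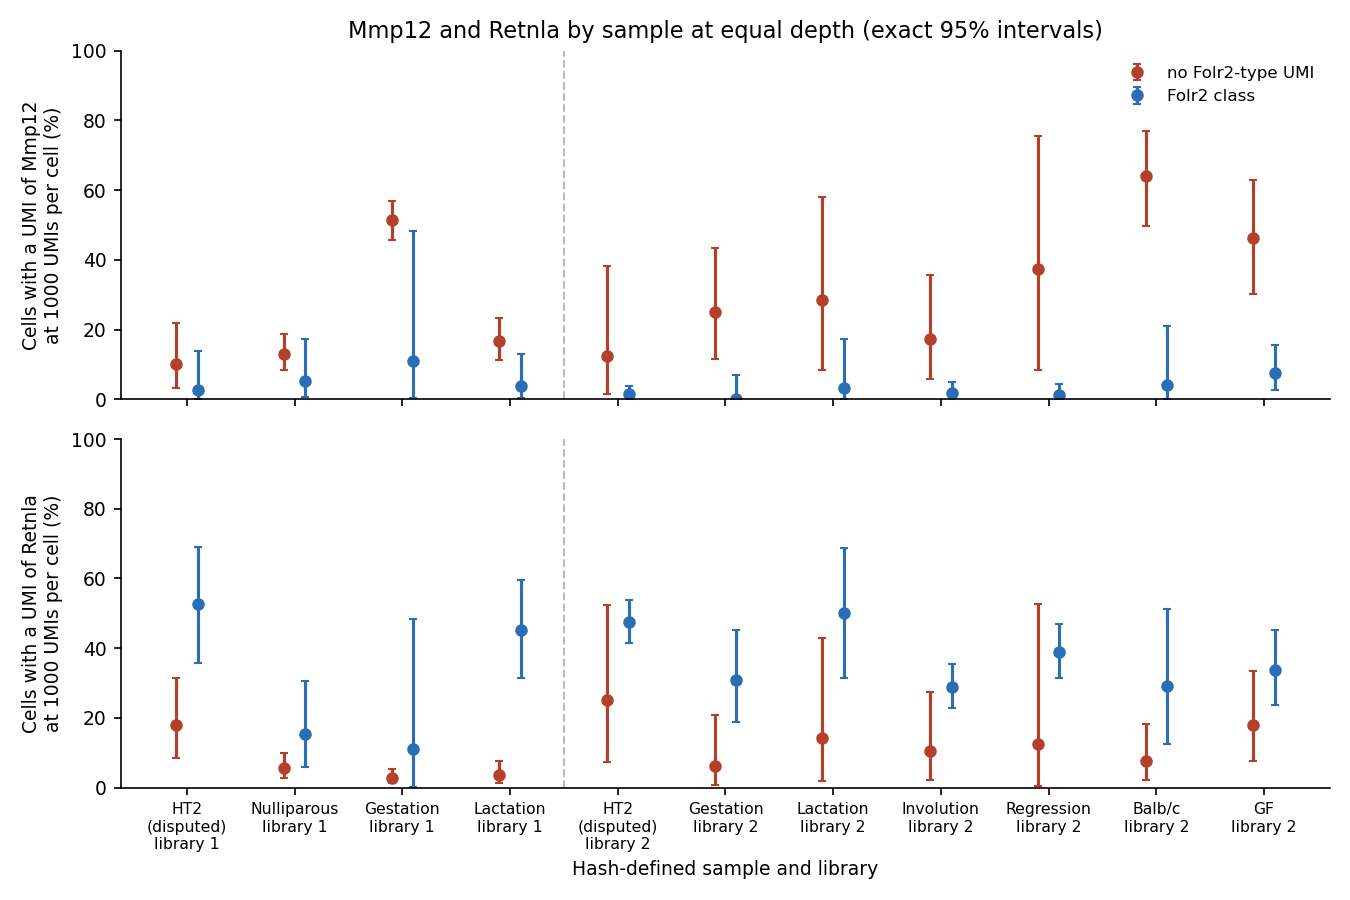
Percent of cells with a UMI of Mmp12 (upper) or Retnla (lower) after thinning to 1000 UMIs, in gated macrophages (red) and the Folr2 class (blue) by hash-defined sample, with exact 95% binomial intervals. Mmp12 is highest in library 1 Gestation (51.4%) and library 2 Balb/c (64.2%), and Retnla is higher in the Folr2 class in every sample, though several intervals overlap.

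Ccl4 was highest in the sample with the most Mmp12 in library 1 and not in library 2. It was found in 47.7% of library 1 Gestation cells at 1000 UMIs and in 22.9% to 30.0% of the cells of the other library 1 samples. In library 2 it was found in 50% of Lactation (7 of 14) and Regression (4 of 8) cells, 46.2% in GF and 39.6% in Balb/c, where Mmp12 was highest, and these intervals overlap. Split by Mmp12, 223 cells with and 499 without a thinned UMI in library 1 held Ccl4 in 47.5% and 28.9%, and Retnla in 0.90% and 6.4%. Part of that contrast is a contrast between samples. Within library 1 Gestation alone, cells with and without Mmp12 held Ccl4 in 52.7% (44.8 to 60.5) and 42.4% (34.6 to 50.5), Itgax in 34.7% and 32.3%, and Apoe in 100% and 99.4%, with overlapping intervals for each. Within Balb/c, Ccl4 was found in 41.2% (24.6 to 59.3) and 36.8% (16.3 to 61.6).

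The stage comparison asked which genes differed between Lactation and Gestation in the gated macrophages, using the 4 samples of those names with the library as a block. Of 5213 genes tested, 5 were called (0.0959%), all higher in Lactation: Iglc1 (4.59 ± 0.69), Hdc (7.29 ± 1.06), Ighg2c (5.29 ± 0.86), Retnla (3.04 ± 0.50) and S100a8 (4.70 ± 0.79). Iglc1 and Ighg2c encode immunoglobulin chains, which plasma cells secrete, Hdc makes histamine in mast cells and basophils, and S100a8 is abundant in neutrophils. In each of these 5 genes a single cell held more than 50% of the UMIs of at least 1 Lactation sample, as for Ighg2c with 752 of 755 UMIs in library 1 and S100a8 with 138 of 138 in library 2, so none met the rule for naming a stage difference. Retnla had 302 of 468 UMIs in 1 cell of library 1 Lactation and 33 of 41 in 1 cell of library 2. The count of called genes was 0 without library 1 Lactation, 3 without library 2 Lactation, 16 without library 2 Gestation and 28 without library 1 Gestation, and 0 when cells with other-lineage UMIs were left out.

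Mmp12, Apoe and H2-Aa were not called between stages. Retnla and S100a8, which differed between the classes, were among the genes called. Mmp12 differed by −0.48 ± 0.59, Apoe by 0.02 ± 0.47 and H2-Aa by −0.22 ± 0.39, each with an adjusted p of 1.00. Mmp12 went in opposite directions in the libraries, at 10.28 in Gestation and 2.57 in Lactation of library 1 and at 5.86 and 12.4 in library 2. The fit had 1 residual degree of freedom, and library 2 Lactation had 14 cells. At an unadjusted p under 0.05, 148 genes passed.

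A fit of the stage difference in both classes together asked whether it differed between them. Of 4277 genes tested, 5 (0.117%) were called, and 176 passed an unadjusted p of 0.05. The called genes were Iglc1, Slpi, Igkv10-96 and Cxcl9, with a more positive Lactation change in the gated macrophages, and Csn1s2a with a more negative one. They too rested on few cells: all 99 UMIs of Cxcl9 in the Folr2 class of library 2 Gestation were in 1 cell, as were all 25 of Igkv10-96 in the gated macrophages of library 1 Lactation, and 232 of 257 UMIs of Csn1s2a, a casein, in the gated macrophages of library 2 Gestation.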

How the data were processed

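Libraries of CD45+ cells from mouse mammary glands followed the 10x Genomics protocol (3' v3.1), according to the labels. The deposited gene and tag matrices hold raw counts, of UMIs per gene and of tags per barcode. A header of library 1 names Cell Ranger 4; the submitters' processing notes list Cell Ranger 6.1.0 and mm10 without a role. Library 2 had no barcode under 500 UMIs. Gene symbols found once in both matrices were used (55253 of 55487 entries). Kept cells held 50906081 and 90109576 UMIs, with medians of 1599 and 3049 per cell.

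Tags were called with HTODemux (Seurat 5.3.0, quantile 0.99). Cells with several tags or none were left out, and Scrublet calls served as an alternative. UMI sums per sample and class, in samples with at least 10 cells of each class, were tested with edgeR 4.0.16 (quasi-likelihood, TMM, filterByExpr, Benjamini-Hochberg over all genes tested). The sample was the block, since both classes come from the same hash-defined sample; the stage fit used the library. Alternatives were DESeq2 1.42.0, its size factors in edgeR, no filter, no block, other gates and tag calls, thinning, deeper cells, and samples or libraries left out. The tests were also run on simulated sums with known changes, drawn without sample effects or single-cell outliers, and the outcome is not given here. Named were the 12 largest differences in each direction with an adjusted p under 0.05, the same direction in 80% of samples, at least 50 CPM in the higher class and at most 20% of its UMIs in 1 cell, and genes of the lists. A stage difference was named only with at most 50% of a sample's UMIs in 1 cell. Retnla, Adgre1, Klrd1 and the genes of the stage tests were named after their values were seen. Some genes of the lists and sets, counted in them, are not reported here by name. The members and gene lists were chosen with earlier results of these data known.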

Additional observations from a re-analysis of the deposited data

Results flagged for a closer look

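In 5 genes the Lactation minus Gestation difference itself differed between the gated macrophages and the Folr2 class, by the test of that difference (edgeR quasi-likelihood, 4 samples, 2 residual degrees of freedom). On the log2 scale, the difference in gated macrophages minus that in the Folr2 class was 6.58 for Iglc1, 6.50 for Slpi, 14.27 for Igkv10-96, 5.67 for Cxcl9 and −2.62 for Csn1s2a. Each rests on sums in which 1 cell holds most UMIs of at least 1 sample and class: 2811 of 5612 UMIs of Iglc1 in the gated macrophages of library 1 Lactation, 26 of 26 UMIs of Slpi in the Folr2 class of library 1 Gestation, 25 of 25 of Igkv10-96, 99 of 99 of Cxcl9 and 232 of 257 of Csn1s2a. DESeq2 called 0 of these differences.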

How the results depend on the processing

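For single genes compared between the classes, over the alternatives, 2909 values kept direction and side of the threshold, 105 lost the threshold, 72 gained it and 6 changed sign. Between the classes, library 1 alone gave 192 genes higher and 215 lower, and thinning to 1000 UMIs gave 193 and 224 of the 1193 genes then tested. The other alternatives stayed within 1.5 times, at 562 to 823 higher and 508 to 766 lower where the block was kept. Without the replicate block, 519 were higher and 517 lower of 2861 tested. In library 1 alone the log2 difference changed sign for Lgals3 (−0.043), Ctsl (0.024), Oasl2 (0.028) and Top2a (−0.29), with the Folr2 gate at 1 for Acta2 (−0.51), and with DESeq2 for Hba-a2 (−0.16); the cause was not tested. The stage test called 3 genes with a C1q sum of at least 8, 1 with DESeq2, 0 with its size factors, 28 with no filter, 0 with no replicate block, 2 without Scrublet calls and 0 without cells holding other-lineage UMIs. Leaving out 1 of the 4 samples, fitted with no block, gave 0 (without library 1 Lactation) to 28 (without library 1 Gestation), with 16 without library 2 Gestation and 3 without library 2 Lactation. Iglc1 between stages was −0.67 without Scrublet calls and ran from −9.39 to 10.70 with 1 sample left out. The test of the difference between classes called 0 genes with DESeq2 (31 at an unadjusted p under 0.05), 3 with the Folr2 gate at 1, 9 with no filter and 13 with tags called by ratio. The Lactation to Gestation ratio of shares was 0.918 in library 1 with tags called by ratio, and 0.855 in library 2 with both classes as denominator. Leaving out cells with other-lineage UMIs, library 1 Gestation or the HT2 samples was chosen after seeing the data. The stage tests rest on 4 samples, with 14 gated macrophages in library 2 Lactation.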
